A study of Triticum aestivum with 12 samples.

Results

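Immature grain of the bread wheat mutant line HPm512 was compared with that of the wild-type cultivar Zhoumai22, both collected 30 days after anthesis, when the flower opened. RNA sequencing gave 3 libraries for each, 6 of the 12 in the series. The labels ascribe high antioxidant activity to the mutant and do not say how it was made or in which background. The other 6 libraries are the same lines at 20 days, and their levels are given here only beside a 30-day result. Nothing in the labels says that the 3 libraries of a group came from separate plants, so p-values measure the spread between libraries, which may be technical. Coding genes in the table lie on chromosomes 1A, 1B and 1D alone, whereas non-coding genes come from the whole genome. Of 25269 genes, 5723 had an FPKM (reads scaled to gene length and library size) of at least 1 in 3 or more of the 12 libraries and were tested.

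Wheat endosperm fills with starch and with gluten proteins, the gliadins and glutenins, which are made on the endoplasmic reticulum and moved to storage vacuoles. As filling slows, the endosperm cells die, while the embryo and the aleurone layer around the endosperm stay alive and prepare for drying. The group 1 chromosomes carry many gluten genes, at the ends of their short arms and at a separate place on their long arms.

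In the mutant at 30 days 780 genes were higher and 532 lower than in wild type, or 13.6% and 9.30% of the genes tested (edgeR's quasi-likelihood test, Benjamini-Hochberg adjusted p under 0.05). The rises were the larger changes: 421 of them (7.36%) were at least 2-fold, against 111 of the falls (1.94%). Library totals were 64.95 to 73.56 M reads, and replicates correlated at r of 0.952 to 0.974 across genes. All log2 fold changes below use TMM factors, which set the bulk of genes near 0 (median -0.03). Scaled by library totals alone, the median gene lay at -0.51, with 412 genes higher (7.20%) and 2595 lower (45.3%), and scaled to equal FPKM totals it lay at -1.14, with 238 higher (4.16%) and 4321 lower (75.5%). In limma on log2(FPKM + 1) 391 were higher (6.83%) and 2622 lower (45.8%). In FPKM, which follow library totals, the mutant libraries all lay above the wild-type libraries for 477 genes (8.33%) and all below for 3138 (54.8%). Among the called genes, 235 higher (4.11%) and 532 lower (9.30%) had the same call with all 3 scalings. A result described as keeping its call with the 3 scalings is one of these. The other 2 scalings move the median gene down, and all 532 falls kept their call. For a fall, keeping its call therefore shows nothing further. In bulk grain, fewer cells of a type and less RNA per cell cannot be told apart.

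**Figure D1:**
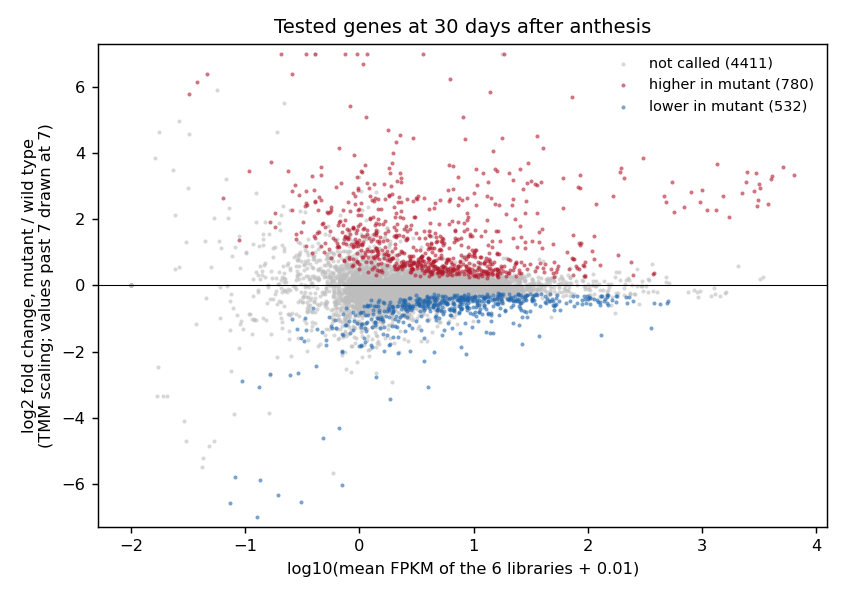
Each point is a tested gene, with the log10 of its mean FPKM over the 6 libraries (plus 0.01) on the x axis and its log2 fold change, mutant over wild type, on the y axis; values past 7 are drawn at 7. The 780 higher genes (red) reach farther from 0 than the 532 lower genes (blue).

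**Figure D2:**
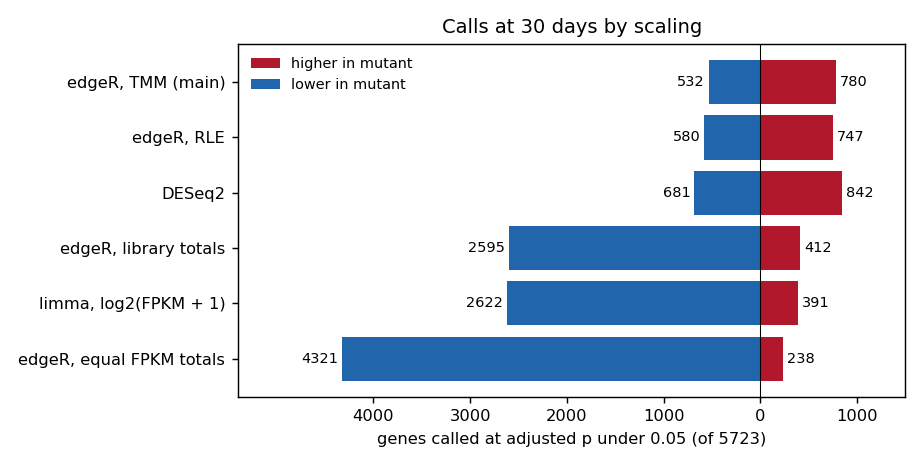
Bars count the genes called higher (right, red) and lower (left, blue) in the mutant under 6 combinations of tool and scaling. The split is near even with TMM, RLE and DESeq2 and lies far to the lower side with library totals (2595 lower), limma on FPKM (2622) and equal FPKM totals (4321).

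The mutant libraries of 30 days also held reads of genes that no other group had, and this bears on how the groups compare. By a rule chosen after the values were seen, 10 or more counts in all 3 libraries of a group and at most 2 counts in all 9 others, 16 coding gene models were read in the mutant at 30 days alone. The same rule gave 2 for the mutant at 20 days, 1 for wild type at 20 days and 0 for wild type at 30 days. Of the 16 genes, 15 had 0 counts in all 9 other libraries, the mutant at 20 days included. The most abundant was TraesCS1A02G434600 (1A, 585304256 to 585304951, no annotation), with 1166, 2237 and 1699 counts in the 3 mutant libraries, or 36.7 ± 12.9 FPKM (SD, n = 3). It belonged to 5 of the 16 genes that lay between 584879972 and 586920588 on 1A: TraesCS1A02G434100, TraesCS1A02G434200, TraesCS1A02G434600, TraesCS1A02G436900 and TraesCS1A02G437000. Conversely, 5 genes had at least 10 counts in each of the 9 other libraries and at most 2 in the mutant at 30 days, against 1, 2 and 4 genes for the mutant at 20 days, wild type at 20 days and wild type at 30 days. They were TraesCS1A02G437200 (a nucleotide-binding gene in the plant-pathogen pathway, beginning at 586923645 on 1A, next to that stretch), TraesCS1B02G106500 (an alpha-mannosidase), TraesCS1B02G203200 (a protein kinase), TraesCS1B02G338600 (carbohydrate binding) and TraesCS1D02G081600 (a histone H4 variant). The last of these had 12, 14 and 15 counts in wild type at 30 days and 208 to 505 in the mutant at 20 days. Whether the mutant libraries of the 2 times carry the same genotype was not tested, and every result below compares the libraries as labelled.

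Between the lines at 30 days, 4 genes had an FPKM of at least 1 in all 3 mutant libraries and 0 counts in all 3 wild-type libraries, and 0 genes showed the reverse. Besides TraesCS1A02G434600 they were TraesCS1A02G334800, a cytochrome P450 by its monooxygenase annotation (1A, 522189569 to 522191557), TraesCS1B02G361800, a kinase entry of the hormone signalling pathway, and TraesCS1B02G411000, the PSF2 subunit of the GINS complex of DNA replication, which also had reads in 1 mutant library of 20 days (0.221 FPKM). TraesCS1A02G334800 had 626, 1144 and 891 counts in the mutant, which made it at least 942-fold higher than 3 counts over the wild-type libraries would be. For TraesCS1A02G434600 the same bound was at least 1806-fold.

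Markers of the grain's tissues were present, and they moved in different directions. All 12 starchy endosperm markers in the table (gliadins, glutenins and purothionin) had reads, and their summed level was 28823 to 35092 FPKM in the mutant and 5866 to 5978 in wild type. At 20 days it had been 21374 to 39460 and 45242 to 46081. The 6 embryo markers, 5 Em proteins and agglutinin, summed to 1370, 2539 and 1456 FPKM in mutant replicates 1 to 3 and to 2782 to 2956 in wild type, with 1 called lower and 0 higher. At 20 days they had not passed 136 FPKM in any library. Globulin 1, a storage protein of embryo and aleurone, went with the endosperm markers, at 1374 to 2010 against 401 to 436 FPKM over its 2 genes. Dividing-tissue markers summed to 27.9, 47.5 and 29.4 FPKM in the mutant and 70.8 to 80.6 in wild type. Of 24 markers of green pericarp 16 were at 0 in all 6 libraries, and 2 of the 3 tested were called higher in the mutant. Their sum was 1.10 to 2.61 FPKM in the mutant and 0.214 to 0.691 in wild type, with no overlap. A longer list, of 151 photosynthesis genes, held a mean of 0.00603% of library reads in the mutant and 0.00827% in wild type. Of its 18 tested genes, 10 lay wholly below wild type in FPKM and 1 wholly above. That is near the shares over all tested genes, 54.8% below and 8.33% above. Both measures follow library totals, by which the log2 fold change of the median tested gene was -0.51. With TMM factors 2 of the 18 were called higher and 0 lower. Mutant replicate 2 had the highest embryo, dividing-tissue and green pericarp sums of the mutant libraries. The part of these tissue levels in the results below was not tested.

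Storage proteins rose as a group, and with them a class of gene models that the table marks as non-translating coding sequence, a term used for genes whose coding region does not give an intact protein. All 18 tested genes with nutrient reservoir activity rose (median log2 fold change 3.30; 16 with all 3 scalings), and so did 33 of 34 tested non-translating models, all 33 with the 3 scalings (median 3.10). The last of the 34, TraesCS1D02G000906, was barely read at 30 days. The non-translating models took 60519, 71667 and 76061 RPM (reads scaled to the library total in the usual way, with no gene length) in mutant replicates 1 to 3, more than the annotated nutrient reservoir genes (28779, 35669 and 37868). In wild type they took 12425, 12663 and 12713, so that all mutant libraries lay above all wild-type libraries. The mutant mean was 5.51 times the wild-type mean (2-sided exact permutation p = 0.1, the smallest that 3 against 3 libraries allow). At 20 days the same models had held 52421 ± 14704 RPM in mutant and 84988 ± 3337 in wild-type libraries.

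Many of the non-translating models lay near annotated storage genes: 22 of the 34 tested were within 1 Mb of a nutrient reservoir or globulin gene on the same chromosome, with a median distance of 376 kb over all 34. The others lay farther away, up to 38552 kb. Among them was TraesCS1D02G015100, with a mean of 9217 FPKM in the mutant, at 6816 kb. TraesCS1D02G009900 (1D, 5356764 to 5357678) lay 5017 kb from the nearest such gene. It was at 2032, 2580 and 2783 FPKM in the mutant and 266, 272 and 272 in wild type, with a log2 fold change of 3.67 (SE 0.29, adjusted p = 1.45e-06). On the long arms, TraesCS1B02G329992 (1B, 555933489 to 555935716), next to the Globulin 1 gene TraesCS1B02G330000 (555938772 to 555939449), was at 1501, 1889 and 1758 against 477, 500 and 499 FPKM (2.28, adjusted p = 1.18e-06). On 1D, TraesCS1D02G317301 (412217776 to 412219631) had a log2 fold change of 2.08 and TraesCS1B02G010700, on the 1B short arm, 4.55, the highest of the class. Gluten genes form families of similar copies, and how the counting treated reads that match several copies is not given in the sources used here, so values of single copies are uncertain. Other coding genes within 1 Mb of a storage gene were also called higher more often, 35 of 149 (23.5%) against 662 of 4868 farther away (13.6%). With calls that kept with the 3 scalings the shares were 6 of 149 (4.03%) and 156 of 4868 (3.20%), and the difference was not tested.

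**Figure D3:**
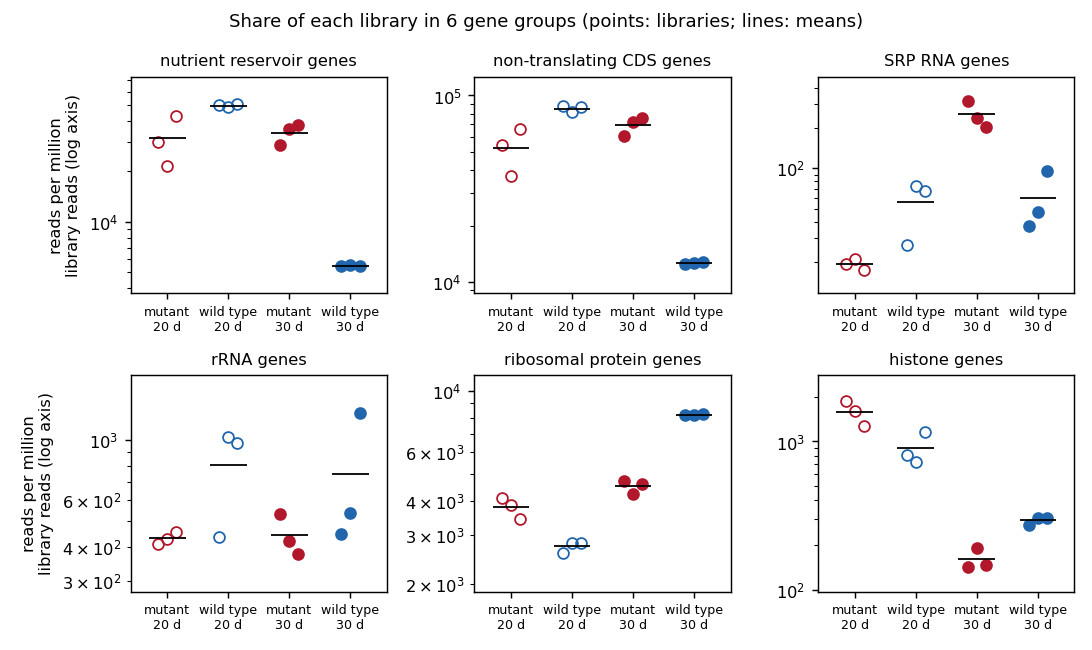
RPM (log axis) in 6 gene groups for each of the 12 libraries, open symbols at 20 days and filled at 30 days, with the mean of each group as a line. At 30 days the mutant lies above wild type for nutrient reservoir, non-translating and SRP RNA genes and below it for ribosomal protein and histone genes.

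SRP RNA, the RNA part of the particle that takes ribosomes making secreted proteins to the endoplasmic reticulum, rose with the storage proteins. Of 33 tested SRP RNA genes 25 were higher and 0 lower (median 2.58), 19 of them with all 3 scalings. SRP RNA took 319, 238 and 202 RPM in mutant replicates 1 to 3 and 37.3, 47.5 and 95.7 in wild type, with no overlap (4.21-fold, 2-sided exact permutation p = 0.1, the smallest possible). At 20 days it had been lower in the mutant, at 19.3 ± 1.71 against 56.4 ± 25.7. Wild-type replicate 3, the highest in its group, was also the highest in rRNA, with 1257 RPM against 449 and 533 in replicates 1 and 2 and 377 to 533 in the mutant. Without that library 27 of 33 SRP RNA genes were higher and the ratio was 5.98. The leading copies lay close together on 7A: ENSRNA050015609 (8082983 to 8083286) was at 68.4 ± 10.5 against 4.08 ± 0.866 FPKM (log2 fold change 4.53, SE 0.26, adjusted p = 2.29e-07). ENSRNA050015610 and ENSRNA050015611 gave 4.06 and 5.10. The treatment of reads that match several SRP RNA copies is likewise unknown here, so values of single copies are uncertain.

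Regulators of storage protein genes were among the transcription factors that rose. The gene described as Storage protein activator (TraesCS1D02G332200, 1D, 422868961 to 422873459), a bZIP factor that binds gluten gene promoters, was at 1.58, 1.52 and 1.37 FPKM in the mutant and 0.422, 0.231 and 0.301 in wild type (log2 difference 2.69, SE 0.37, adjusted p = 0.000145). TraesCS1B02G343500, described as a transcriptional activator, was at 2.42 ± 0.481 against 0.665 ± 0.234 FPKM (2.32). Both had been far higher at 20 days, at 5.85 and 5.88 FPKM for the former and 13.5 and 12.6 for the latter in mutant and wild type. The bZIP factor TraesCS1A02G072600 rose by 1.41 (9.54 ± 1.29 against 4.99 ± 0.350 FPKM), and with equal FPKM totals it no longer passed (0.30). TraesCS1D02G072600 was at 4.95, 4.93 and 4.35 against 1.20, 0.998 and 1.18 FPKM (2.54, adjusted p = 8.67e-07), also above its 20-day means of 0.910 and 1.19.

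Over all 80 tested transcription factors 15 rose and 5 fell (4 and 5 with the 3 scalings), and 3 fell without mutant replicate 1 or wild-type replicate 2 or 3. Heat shock factor A6e (TraesCS1A02G375600), of a family that switches on chaperone genes, rose by 1.23, but with equal FPKM totals it was at 0.15 and no longer passed. The falls included 1 gene on each of the 3 chromosomes with the same annotation of sequence-specific DNA binding. TraesCS1D02G220900 was at 2.53, 2.98 and 3.94 FPKM in the mutant and 11.9, 12.4 and 11.6 in wild type (-1.45, SE 0.33, adjusted p = 0.00636). TraesCS1B02G232700 was at 4.48 ± 0.372 against 14.9 ± 0.982 (-1.26) and TraesCS1A02G219200 at 7.28 ± 1.27 against 21.3 ± 2.80 (-1.07). All 3 stood at 1.12 to 2.99 FPKM in either line at 20 days, and in both lines they were higher at 30 days. A DNA-binding nuclear protein outside the list, TraesCS1D02G275400 (1D, 371340747 to 371341994), had 10.6, 22.2 and 14.5 against 1.07, 1.21 and 0.759 FPKM (4.43, adjusted p = 6.21e-07).

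Thionins and some other small defence proteins rose. Both thionins of the table, antimicrobial peptides, were called, and together they took 4189 ± 359 RPM in mutant and 1087 ± 11.9 in wild-type libraries. TraesCS1A02G398200, annotated with defence response and toxin activity (1A, 563608918 to 563610026), was among the most abundant, at 6535, 5989 and 5515 FPKM in the mutant and 1471, 1505 and 1525 in wild type (log2 difference 2.47, SE 0.20, adjusted p = 1.74e-06). The neighbouring TraesCS1A02G398100 gave 4.71 and the defensin TraesCS1A02G014000 gave 3.96, both at low levels. Of 49 tested genes with the defence response term, however, 8 rose and 8 fell (5 without wild-type replicate 2).

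Inhibitors of proteases and amylases had 17 rises and 1 fall among 35 tested genes (median 0.77; 8 rises and the fall with all 3 scalings). The list holds both Globulin 1 genes, which carry the same annotation. TraesCS1B02G043800 (1B, 23839433 to 23840104) was at 55.0, 57.7 and 52.2 FPKM in the mutant and 6.78, 9.12 and 9.77 in wild type (3.15, SE 0.22, adjusted p = 6.65e-07). TraesCS1B02G034300 gave 3.27 and TraesCS1D02G028100 gave 2.94. The exception, TraesCS1A02G028200 (1A, 13281440 to 13281658), was at 22.1, 9.91 and 13 against 57.2, 59.8 and 63.4 FPKM (-1.53, SE 0.30, adjusted p = 0.00242). Its 20-day means were 1.25 and 1.66 FPKM in mutant and wild type. Wali3, Wali5 and Wali6, small proteins first described from aluminium-treated wheat, gave 0.71, 1.26 and 1.21 (TraesCS1D02G265900, TraesCS1D02G265800 and TraesCS1B02G276900), which with equal FPKM totals were -0.39, 0.17 and 0.11.

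**Figure D4:**
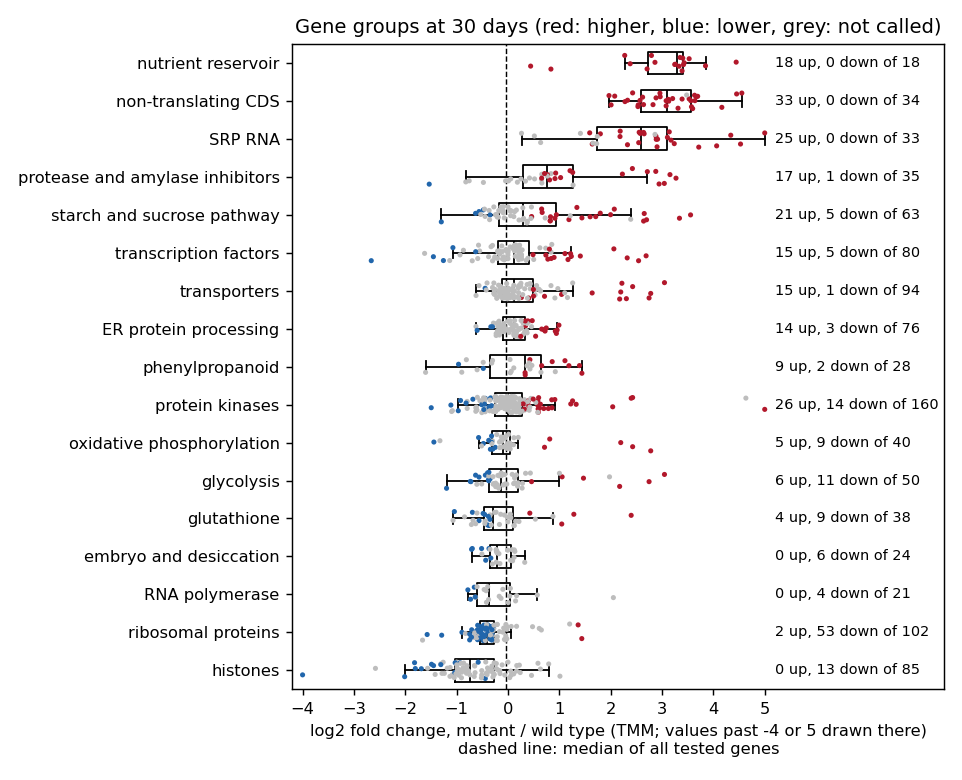
Each point is a tested gene, placed by its log2 fold change, in 17 gene groups; boxes give the quartiles and median, and the numbers at the right count the calls. The first 3 groups (medians 3.30, 3.10 and 2.58) lie far from the dashed line at the median of all genes, whereas ribosomal proteins and histones lie to its left (-0.41 and -0.74).

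A set of 3 proton pumps and 3 carboxypeptidases, picked from larger lists after their values were seen, was higher. The 3 proton-pumping pyrophosphatases, enzymes that use pyrophosphate to acidify the vacuole, rose on each chromosome. TraesCS1A02G107200 (1A, 104931188 to 104936751) was at 17.1, 16 and 17.3 FPKM in the mutant and 3.38, 3.69 and 3.09 in wild type (log2 difference 2.78, SE 0.22, adjusted p = 1.19e-06). TraesCS1D02G107600 gave 2.43 and TraesCS1B02G124600 gave 2.20. At 20 days TraesCS1A02G107200 stood at 66.6 and 80.7 FPKM, so both lines were lower at 30 days and wild type lower still. Carboxypeptidases, which trim proteins from their ends, also rose: TraesCS1D02G087600 was at 9.57, 5.87 and 6.55 against 1.97, 1.46 and 1.93 FPKM (2.50, adjusted p = 5.47e-07), TraesCS1A02G086100 gave 2.08 and TraesCS1B02G104500 gave 2.99. All 6 of these calls held with the 3 scalings.

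The proteolytic subunits of the Clp protease, which works in plastids and mitochondria, fell. TraesCS1B02G472100 (1B, 679753602 to 679757697) was at 2.76, 2.37 and 2.21 FPKM in the mutant and 8.38, 8.33 and 9.11 in wild type (-1.34, SE 0.17, adjusted p = 7.22e-05). Another 4 subunit genes, TraesCS1A02G198400, TraesCS1D02G202100, TraesCS1A02G437500 and TraesCS1B02G213300, fell by 0.60, 0.46, 0.44 and 0.40 on the log2 scale. Their calls held in 6, 5, 3 and 3 of the 6 fits that each leave out a library. Serine and aspartic peptidases as a list thus had 9 rises and 8 falls among 43 genes, the falls numbering 2, 3, 4 and 5 without wild-type replicate 1, wild-type replicate 2, mutant replicate 3 or wild-type replicate 3. Of 6 cysteine peptidases 0 were called (median -0.23), and of 10 autophagy genes 1 rose and 1 fell. Of the proteasome, which degrades tagged proteins, 4 genes fell and 2 rose among 22. TraesCS1B02G415200, of proteasome assembly, rose by 1.44, but with equal FPKM totals it was at 0.32 and no longer passed, and TraesCS1B02G210900 was at -0.58.

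Protein processing in the endoplasmic reticulum had 14 rises and 3 falls among 76 genes, all of at most 0.99 on the log2 scale. None of the rises kept its call with the 3 scalings, and they numbered 8 without wild-type replicate 2 or 3 and 9 without mutant replicate 3. The largest, the ubiquitin-conjugating enzyme TraesCS1B02G311400, was at 16.3, 17.1 and 15 FPKM against 11, 11.2 and 11.6 (0.99) but at -0.11 with equal FPKM totals. The protein disulfide isomerase TraesCS1B02G126100, which forms disulfide bonds, fell by 0.33 on the log2 scale, a call that held in 4 of the 6 such fits. The ubiquitin ligase entry TraesCS1D02G102700 was a clear exception to the small changes of the 120 ubiquitin genes, at 5.41 ± 0.248 against 1.14 ± 0.183 FPKM (2.71). The list had 11 rises and 14 falls, of which 6 to 9 falls were left without wild-type replicate 1, 2 or 3 or mutant replicate 1 or 2.

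Genes of sugar transport and amino group transfer gave rises in few members. The SWEET transporter TraesCS1A02G050400 (1A, 32260043 to 32262299), of a family that lets sugars out of cells, was among the largest rises taken by the naming rule: 7.31, 16.9 and 12.4 FPKM in the mutant against 0.198, 0.298 and 0.153 in wild type. Its 20-day means were 1.20 and 2.53 FPKM, so the mutant level at 30 days was above that of both lines at 20 days. Among the 6 SWEET genes tested, TraesCS1D02G052700 also rose and TraesCS1A02G265200 fell (-1.13). Alanine aminotransferase, which makes alanine from pyruvate, rose on all 3 chromosomes (EC 2.6.1.2): TraesCS1A02G085600 was at 56.3, 48.6 and 48.4 against 24.3, 22.3 and 22.8 FPKM (1.61, SE 0.14, adjusted p = 2.43e-06), TraesCS1B02G102700 gave 1.45 and TraesCS1D02G086700 1.34, the last at 0.24 and no longer called with equal FPKM totals. In the nitrogen list these were the 3 rises, and 5 of 25 genes fell, among them the glutamine synthetase TraesCS1D02G141800 (-0.70), which fixes ammonia. Without wild-type replicate 1 or 2 the falls numbered 3.

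Starch synthesis had 6 rises and 1 fall among 15 genes, with log2 fold changes from -1.30 to 3.34. Of the rises 2 are the activators named above, listed through a starch term. The ADP-glucose enzyme TraesCS1A02G419600 gave 0.82 and reversed to -0.29 with equal FPKM totals. Entries with the enzyme number of beta-amylase, which releases maltose from starch, held the 4 rises among 7 amylase genes (0.67 to 0.94), and 0 of these kept their call with library totals alone. Without mutant replicate 2 or 3 or wild-type replicate 3, 2 of them were called. The beta-glucanase TraesCS1A02G234600, which cuts the cell wall glucan of endosperm, was at 4.97, 4.44 and 5.86 against 0.973, 1.14 and 1.24 FPKM (2.65, SE 0.25, adjusted p = 5.50e-06). Of 94 transporters 15 rose and 1 fell, where 13.6% and 9.30% of all tested genes did. With the 3 scalings 7 of these rises kept their call. Without wild-type replicate 1 or 3 the rises of transporters numbered 11.

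Ribosomal protein genes fell, whereas translation factors and the enzymes that load tRNA were split. Of 102 tested ribosomal protein genes, those of organelles included, 53 fell and 2 rose (median -0.41). The 153 ribosomal protein genes in the table together took 4712, 4240 and 4584 RPM in mutant libraries and 8156, 8187 and 8243 in wild type (0.551-fold, 2-sided exact permutation p = 0.1, the smallest possible). RPM follow library totals, by which the log2 fold change of the median tested gene was -0.51. At 20 days the order was the other way, 3789 ± 333 against 2731 ± 131. The largest named fall, the mitochondrial ribosomal protein TraesCS1B02G415900 (1B, 640864907 to 640867942), was at 3.63, 2.42 and 2.74 against 9.86, 9.98 and 9.99 FPKM (-1.29, adjusted p = 4.35e-05). Initiation factors split, with TraesCS1A02G316900 at 0.70 and TraesCS1B02G167100 at -0.55 among 11 translation factors (3 rises, 2 falls). The value of TraesCS1A02G316900 reversed to -0.39 with equal FPKM totals. Aminoacyl-tRNA synthetases, which load amino acids onto tRNA, had 4 rises and 2 falls among 27 genes, with TraesCS1D02G194700 at 0.78 (reversed to -0.32 with equal FPKM totals) and TraesCS1A02G369400 at -0.53. RNA polymerase had 4 falls and 0 rises among 21 genes, and its subunit TraesCS1D02G160000 was at 6.89 ± 1.40 against 15.8 ± 0.513 FPKM (-0.73). In the spliceosome 8 genes rose and 7 fell of 83, with the U6 protein TraesCS1A02G443700 at -0.93, a call that held in 1 of the 6 fits that each leave out a library. Those fits gave as few as 5 rises and 3 falls in the spliceosome, without wild-type replicate 1.

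Histone genes fell, and genes of replication and of the spindle changed in both directions. Of 85 tested histone genes 13 fell and 0 rose (median -0.74). The H2A gene TraesCS1A02G038200 (1A, 21022731 to 21023627) was at 1.38, 3.61 and 1.48 FPKM in the mutant and 9.02, 7.83 and 8.42 in wild type (-1.49, SE 0.34, adjusted p = 0.00671), from 173 and 93.8 FPKM at 20 days. Mutant replicate 2 was the highest of its group, and without it 40 histone genes fell. Without wild-type replicate 2, mutant replicate 1 or wild-type replicate 3 the falls numbered 7, 8 and 9. DNA replication genes had 7 falls and 2 rises among 40. The DNA polymerase epsilon subunit TraesCS1A02G130700 was at 0.660 ± 0.0215 against 1.87 ± 0.131 FPKM (-1.03) and the primase TraesCS1A02G227700, which makes the primers of replication, at -1.13. Kinesins, the motors of the spindle and of transport along microtubules, had 5 falls and 2 rises among 18, with TraesCS1B02G202600 at -0.37 (held in 3 of 6 such fits). Without mutant replicate 1 or wild-type replicate 2 there were 3 falls of kinesins.

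Falls outnumbered rises in 3 lists of respiration, by counts alone. Oxidative phosphorylation had 9 falls and 5 rises among 40 genes, and 3 of the rises were the proton-pumping pyrophosphatases. A subunit of complex I with NADH dehydrogenase activity, TraesCS1A02G353000 (1A, 536882487 to 536884307), was at 10.1, 2.59 and 6.14 FPKM in the mutant and 22.9, 24.1 and 23.7 in wild type (-1.44, SE 0.36, adjusted p = 0.0115), from under 1 FPKM in both lines at 20 days. The beta subunit of ATP synthase was at 34.8, 31.4 and 36.1 against 68.5, 72.2 and 70.2 FPKM in TraesCS1B02G400300 (-0.57) and at -0.48 in TraesCS1A02G379000. Glycolysis had 11 falls and 6 rises among 50 genes. All 3 pyruvate kinases of its last step fell, TraesCS1D02G215900 the most (1.28 ± 0.0408 against 4.09 ± 0.276 FPKM, -1.20), and glucose-6-phosphate isomerase TraesCS1A02G040600 gave -0.63. In the citrate cycle 5 genes fell and 2 rose of 18, with the malate dehydrogenase TraesCS1A02G412900 at -0.47 (held in 4 of the 6 fits that each leave out a library). The falls of glycolysis numbered 4 without wild-type replicate 1 and 6 without mutant replicate 1 or wild-type replicate 2 or 3. Those of the citrate cycle numbered 1, 3, 2 and 3 without wild-type replicates 1, 2 and 3 and mutant replicate 2.

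Embryo and drying genes were lower or did not pass the test. Of 24 genes in the embryo and desiccation list 6 fell and 0 rose. TraesCS1B02G455900, annotated with the response to desiccation, was at 88.1, 79.0 and 89.0 FPKM in the mutant and 168, 167 and 172 in wild type (-0.51, adjusted p = 0.00424), from 16.3 and 19.0 at 20 days. The others included 3 tubulin-folding genes of embryo development, TraesCS1B02G200300 at -0.71, TraesCS1D02G178400 at -0.69 and TraesCS1A02G180200 at -0.43. Agglutinin isolectin 1 (TraesCS1A02G326800), the chitin-binding lectin of the embryo, was at 55.6, 44.4 and 59.7 against 207, 212 and 210 FPKM. The chitin-binding gene TraesCS1D02G328900 was at 182, 130 and 175 against 535, 539 and 569 FPKM (-1.28, adjusted p = 0.0284), a call that ended when any of the 6 libraries was left out.

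**Figure D5:**
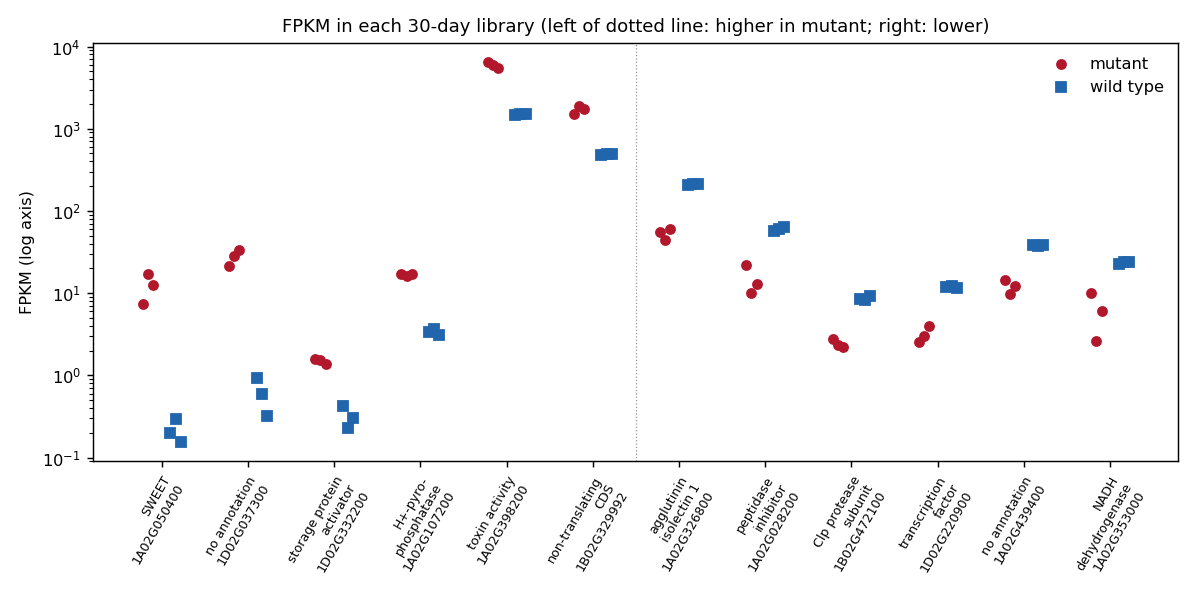
FPKM (log axis) in each of the 6 libraries for 12 genes, circles for the mutant and squares for wild type. The 12 were chosen by a rule that asks for no overlap between the lines, or after their values were seen. Their lack of overlap is therefore no result. The SWEET transporter is at 7.31 to 16.9 against 0.153 to 0.298, and agglutinin at 44.4 to 59.7 against 207 to 212.

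The lists that bear on antioxidants differed in direction. Glutathione, the main thiol antioxidant of plant cells, had 9 falls and 4 rises among 38 genes. Only mutant replicate 1 could be left out with the falls staying above 4: they numbered 2 without mutant replicate 2 or wild-type replicate 1 or 2, and 4 without mutant replicate 3 or wild-type replicate 3. The rises numbered 0 to 2 without any library but wild-type replicate 2. The glutathione transferase entries TraesCS1D02G257800 (2.02 ± 0.190 against 5.81 ± 0.985 FPKM, -1.04, adjusted p = 0.0487) and TraesCS1A02G078800 (283 ± 29.6 against 579 ± 6.60, -0.56, adjusted p = 0.0249) fell. The call of TraesCS1D02G257800 ended when any library was left out, and that of TraesCS1A02G078800 in 5 of 6 cases. Phenylpropanoid synthesis, which gives lignin and other phenolics, had 9 rises and 2 falls among 28 genes (median 0.33), and none of the rises held with the 3 scalings. Without wild-type replicate 3 or any of the mutant libraries 5 rises were called. The largest, the beta-glucosidase TraesCS1A02G229300, was at 12, 9.71 and 9.27 against 5.51, 5.40 and 4.86 FPKM (1.44, but 0.34 with equal FPKM totals). Of 14 tested peroxidase genes 2 rose and 1 fell, the fall being TraesCS1A02G124200 (-0.96). Without wild-type replicate 3, 0 of the peroxidase rises were left. In the tocopherol and quinone list 5 genes rose and 1 fell of 17, with 2 rises left without mutant replicate 2 and 3 without wild-type replicate 3. The 5 rises were all quinone dehydrogenases, of which TraesCS1D02G320300 gave 1.56 and TraesCS1B02G332700 was at 1.66, 2.59 and 1.96 against 1.20, 1.32 and 1.29 FPKM (1.17, but 0.06 with equal FPKM totals). The fall was the tocopherol cyclase TraesCS1B02G236600 of vitamin E synthesis, at 6.62, 7.25 and 6.26 against 12.2, 10.9 and 10.8 FPKM (-0.27, adjusted p = 0.0408). That call ended when any of 4 of the 6 libraries was left out. Flavonoid synthesis had 6 rises and 2 falls among 19 genes (median -0.07), with 4 rises left without wild-type replicate 3 or any of the mutant libraries. Thioredoxins and glutaredoxins, which reduce disulfides, had 3 rises and 0 falls among 12, and 2 rises without wild-type replicate 2. None of the rises in these lists held with the 3 scalings. For superoxide dismutase and catalase 0 of 3 genes passed, and of carotenoid and MYB genes 0 of 9 and 0 of 6.

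In the list of hormones other than auxin 12 of 59 genes fell and 1 rose, and 7 fell without wild-type replicate 1. Hormone signalling had 14 falls and 7 rises among 90 genes, 7 and 6 without wild-type replicate 1 and 8 and 6 without wild-type replicate 2. Auxin genes had 3 falls and 1 rise among 23, and 1 fall without wild-type replicate 1 or 2 or mutant replicate 2. The gibberellin receptor GID1 (TraesCS1A02G255100) was at 3.79 ± 0.211 against 7.78 ± 0.298 FPKM (-0.57, adjusted p = 0.0131). A phosphatase annotated with the response to abscisic acid fell on each chromosome, TraesCS1D02G265200 the most (1.37 ± 0.105 against 3.55 ± 0.285, -0.90). The enzyme that releases active cytokinin was split, with TraesCS1B02G471300 at 2.99, 3.27 and 3.32 against 0.634, 0.630 and 0.689 FPKM (2.76, SE 0.24, adjusted p = 2.84e-06) and TraesCS1D02G154700 at -0.90, a call that held in 1 of the 6 fits that each leave out a library. The protein phosphatase TraesCS1B02G441400 of hormone signalling had the largest fall of a coding gene taken by the naming rule (1.42 ± 0.562 against 5.97 ± 1.05 FPKM, -1.60, adjusted p = 0.0483), a call that ended when any library was left out. Protein kinases had 26 rises and 14 falls among 160 genes, near the 13.6% and 9.30% over all tested genes. Only 3 of the rises kept their call with the 3 scalings. The fits that each leave out a library gave 18 to 21 rises and 9 to 13 falls of kinases. TraesCS1B02G329700 (1B, 555762001 to 555764897), in the same region of 1B as Globulin 1, was at 213, 45.2 and 169 FPKM in the mutant and 7.04, 4.11 and 0.0475 in wild type (5.70, SE 1.12, adjusted p = 0.00242), with a wide spread in both lines.

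Genes with no annotation held 276 of the 1312 calls, non-translating models reported above among them. How many such genes were tested is not given here, so the count cannot be set beside the 22.9% called over all tested genes. Chosen after their values were seen, TraesCS1D02G037300 (1D, 17642532 to 17642711) was at 21.2, 28.0 and 33.0 FPKM in the mutant and 0.938, 0.593 and 0.318 in wild type (log2 difference 5.85, SE 0.41, adjusted p = 6.72e-07). TraesCS1A02G033501 (1A, 16373919 to 16375124) was abundant, at 890, 958 and 986 against 155, 148 and 147 FPKM (3.13). Among the falls, TraesCS1B02G473900 (1B, 681847664 to 681850883) was at 15, 4.86 and 7.97 against 39.3, 47.2 and 44.5 FPKM (-1.77) and TraesCS1A02G439400 at 14.3, 9.80 and 12.3 against 38.7, 37.6 and 38.4 (-1.19, adjusted p = 4.16e-06). A gene of RNA-directed silencing, TraesCS1A02G445500 (1A, 593279894 to 593287280), was at 6.77, 4.71 and 4.99 against 19.4, 20.3 and 21.1 FPKM (-1.42, adjusted p = 1.19e-06).

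Apart from SRP RNA, few non-coding genes were called. Of 348 rRNA genes 2 rose and 12 fell, of 224 small nucleolar RNAs, which guide changes of rRNA bases, 0 rose and 3 fell, and of 36 spliceosomal snRNAs 3 rose. The non-coding falls taken by the naming rule were mostly in rRNA copies: ENSRNA050016272 (-3.07), ENSRNA050016023 (-2.07), ENSRNA050014871 (-2.02) and ENSRNA050020567 (-1.85). ENSRNA050016272 was at 0.398, 0.919 and 0.328 FPKM in the mutant and 2.75, 7.49 and 12.2 in wild type. Without wild-type replicate 3, the library richest in rRNA, the value of ENSRNA050020567 was -1.37 and its call ended. The nucleolar RNA U54 (ENSRNA050019618) was at 0.876, 0.732 and 1.03 against 6.73, 7.04 and 5.70 FPKM (-2.28, adjusted p = 0.00744). Small nucleolar RNAs together were at 35.4 ± 5.85 (mutant) and 61.5 ± 1.51 RPM (wild type), groups that did not overlap. RPM follow library totals, and in FPKM, which also follow them, 54.8% of all tested genes lay wholly below wild type.

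The calls were spread over the 3 chromosomes, at 15.5% higher and 11.2% lower on 1A, 13.9% and 10.1% on 1B and 14.8% and 9.0% on 1D. In 50 Mb windows the first window of 1B had the highest share of rises (21 of 61 genes, 34.4%), followed by that of 1D (60 of 236, 25.4%). The second windows of 1B (9 of 40, 22.5%) and 1A (32 of 143, 22.4%) came next, above the first window of 1A (49 of 237, 20.7%). In the first window of 1B, 14 of the rises lay between 0 and 10 Mb, a stretch that holds gliadin and non-translating models. The highest share of falls was in the last window of 1B, 650 to 700 Mb (43 of 185, 23.2%). Within it, by a choice made after the values were seen, 31 of 90 genes from 670 Mb on fell (34.4%) and 14 rose, and on 1A between 580 and 590 Mb 11 of 45 fell (24.4%) and 5 rose. Coordinates are those of the table, whose genome build is not given in the sources used here.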

How the data were processed

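The authors deposited whole-number read counts and FPKM per gene and library, per the file headers; the submitters' processing notes name cutadapt 1.9 and FastQC. Which aligner, counter and genome build were used is not given in the sources used here. Deposited FPKM scale each count by the length of the gene and the size of the library, so their ratios follow library totals. The table holds part of each library, so totals (64.95 to 73.56 M reads in the 6 libraries) were recovered from count over FPKM in 43 non-coding genes.

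Genes with FPKM of 1 in at least 3 of 12 libraries were tested with edgeR 4.0.16 (R 4.3.3) on counts, in a single fit of 4 group means with TMM factors, adjusted over 5723 genes; the SE is the log2 fold change divided by the square root of F. Summed shares were compared by 2-sided exact permutation tests. Alternatives were other scalings, filters, DESeq2 1.42.0, limma 3.58.1, the replicate block and leaving out libraries. The edgeR step was tested on simulated data.

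The members and the 56 gene lists, patterns matched to descriptions, gene ontology, KEGG and EC text, were chosen with earlier results of these data known; 3 lists (sucrose entry, amino acid synthesis, aquaporins) had no tested gene. Named genes were called, did not overlap between lines, and had an FPKM of 5 in the higher line and an annotation: 8 rises and 8 falls of greatest size and the greatest rise and fall in each list, 57 genes of 440. Others were chosen after their values were seen.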

Additional observations from a re-analysis of the deposited data

Results flagged for a closer look

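For 43 of the 57 genes named by rule the difference between the lines at 30 days differed from that at 20 days, by the interaction term of the same edgeR fit (quasi-likelihood test, Benjamini-Hochberg adjusted p under 0.05). These genes were chosen by their 30-day difference, which is part of that term, so a high count follows in part from the choice. The share over all tested genes is not given here. The values below are the log2 difference at 30 days less that at 20 days, and both times rest on 3 libraries a line. They use TMM factors alone, and values with other scalings are not given. At 30 days these factors were 0.79 to 0.83 in mutant and 1.09 to 1.15 in wild-type libraries. At 20 days the order was opposite, 1.08 to 1.27 and 0.92 to 0.97. The smaller values in either direction therefore depend on the choice of scaling. Since 16 gene models were read in the mutant at 30 days alone, a difference between the times also compares mutant libraries that are not alike in those genes, and their part in these values was not tested.

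The difference was more positive at 30 days for 22 genes. Among storage and endosperm proteins, the gliadin TraesCS1B02G011000 gave 5.98, Globulin 1 TraesCS1B02G330000 gave 3.84 and the thionin TraesCS1B02G426000 gave 3.76. The inhibitor TraesCS1B02G034300 gave 4.63. The SRP RNA copies ENSRNA050015611, ENSRNA050015609 and ENSRNA050015610 gave 7.97, 5.98 and 5.59. The SWEET transporter TraesCS1A02G050400 gave 7.60 and the kinase TraesCS1B02G329700 gave 6.02. The DNA-binding protein TraesCS1D02G275400 gave 4.77, the bZIP factor TraesCS1A02G072600 gave 1.81 and heat shock factor TraesCS1A02G375600 gave 1.53. Enzymes followed with 3.34 for the pyrophosphatase TraesCS1A02G107200, 3.33 for the beta-glucanase TraesCS1A02G234600, 3.18 for the carboxypeptidase TraesCS1D02G087600, 2.20 for the alanine aminotransferase TraesCS1A02G085600 and 1.53 for the ADP-glucose enzyme TraesCS1A02G419600. Of the ubiquitin and proteasome genes, TraesCS1D02G102700 gave 3.28, TraesCS1B02G415200 gave 1.37 and TraesCS1B02G311400 gave 1.22. TraesCS1D02G194700 and TraesCS1A02G316900, of tRNA loading and initiation, gave 1.08 and 0.67. In FPKM, which follow library totals, TraesCS1A02G316900 was at 103 in mutant and 87.5 in wild type at 30 days. Its 20-day means were 130 and 102, so by FPKM its difference was not larger at 30 days.

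It was more negative for 21 genes. Agglutinin TraesCS1A02G326800 and the 5.8S rRNA copy ENSRNA050016023 both gave -2.35, the H2A gene TraesCS1A02G038200 gave -2.05 and the SWEET transporter TraesCS1A02G265200 gave -2.02. The transcription factor TraesCS1D02G220900 gave -1.84, the Clp subunit TraesCS1B02G472100 gave -1.60 and the mitochondrial ribosomal protein TraesCS1B02G415900 gave -1.53. The protein refolding gene TraesCS1A02G361400 gave -1.15, the proteasome gene TraesCS1B02G210900 gave -1.03, the glutamine synthetase TraesCS1D02G141800 gave -0.97, the RNA polymerase subunit TraesCS1D02G160000 gave -0.95 and the peroxidase TraesCS1A02G124200 gave -0.90. Smaller values were -0.88 for the malate dehydrogenase TraesCS1A02G412900, -0.76 for the DNA repair gene TraesCS1B02G473400, -0.75 for the initiation factor TraesCS1B02G167100, -0.74 for the kinase TraesCS1B02G469400 and -0.60 for the isomerase TraesCS1A02G040600. The kinesin TraesCS1B02G202600 gave -0.56, the disulfide isomerase TraesCS1B02G126100 gave -0.54, the autophagy regulator TraesCS1D02G333000 gave -0.46 and the tocopherol cyclase TraesCS1B02G236600 gave -0.37.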

How the results depend on the processing

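The count of genes called in the comparison, 1312, was 3007 with library totals alone, 4559 with equal FPKM totals, and 3013 and 2980 with limma on FPKM plus 1 and plus 0.1. It was 767 when the same call was asked of TMM, library totals and equal FPKM totals. The higher genes, 780, numbered 412, 238, 391, 408 and 235 under these 5 settings, and 505 with a minimum FPKM of 5. The lower genes, 532, numbered 2595, 4321, 2622 and 2572 under the first 4. Leaving out each library in turn gave 997 to 1166 calls, 629 to 675 higher and 346 to 491 lower. In all 6 cases 533 of the 780 higher and 276 of the 532 lower genes kept their call. RLE, DESeq2, no filter and the 6 libraries alone stayed within 1.5 times of each count. With an FPKM of 0.5 in place of 1, 10 genes were read in the mutant alone and 4 in wild type alone.

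With equal FPKM totals 4 named genes reversed: TraesCS1A02G316900 to -0.39, TraesCS1A02G419600 to -0.29, TraesCS1B02G311400 to -0.11 and TraesCS1D02G194700 to -0.32. Of the 57 genes named by rule, 38 kept direction and call under every alternative, and 10 lost the call without some library. At 30 days samples with the same replicate number did not deviate together (correlations of -0.0505, -0.008 and -0.0825). No pairing by number was seen, but 3 libraries a line are too few to exclude it. With the number as a replicate block 1200 genes were called, 735 higher and 465 lower, and 3 of the 57 lost their call. Depth did not limit the abundant genes, whereas genes near an FPKM of 1 in a single line rest on few reads.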
